A study of Homo sapiens with 4 samples.

Results

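The 9 genes described here encode the machinery that puts peptides on MHC class I molecules and a regulator of its transcription. They are the heavy chain genes HLA-B, HLA-C, HLA-E and HLA-F, the light chain gene B2M, the peptide transporter genes TAP1 and TAP2, the loading factor gene TAPBP and the regulator gene NLRC5. They were taken by symbol from 51714 Ensembl gene identifiers, and each of the 9 matched 1 identifier. Their read counts and RPKM, in which a count is scaled by gene length and total reads, were compared between R1810A and WT cells, whatever those values were.

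All cells were Raji, a B lymphocyte line established from Burkitt lymphoma and positive for Epstein-Barr virus. R1810A cells (2 libraries) expressed recombinant RPB1, the catalytic subunit of RNA polymerase II, that was tagged with HA, resisted α-amanitin and had alanine instead of a methylatable arginine in the C-terminal domain. WT cells (2 libraries) received the same kind of vector with the wild-type resistant subunit, so the control also carried a transgene. Both populations were polyclonal, were selected with G418 and then α-amanitin, and gave total RNA from which ribosomal RNA had been depleted, to ask whether loss of this methylation site affects gene expression. The labels do not say whether replicates were separate cultures, so the spread that p-values measure may be a technical one.

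A class I molecule is a heavy chain paired with β2-microglobulin, the product of B2M. Peptides cut by the proteasome enter the endoplasmic reticulum through the TAP1-TAP2 transporter and are loaded with the help of tapasin, the product of TAPBP, before the complex goes to the cell surface, where CD8 T cells and natural killer cells read it. In lymphoid cells NLRC5 enters the nucleus and activates class I, B2M, TAP1 and immunoproteasome genes through a conserved promoter module, and interferon and NF-κB signalling act on the same promoters.

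Promoter sequences are shown for 6 heavy chain, light chain and transporter genes, where such elements are known. Not every element was matched in each of them. Of the 9 genes, 7 had an entry in the RefSeq promoter table (GRCh38.p14, 250 bases before to 50 after each start), which gave 8 entries because TAP1 had 2. HLA-E and NLRC5 had none. The letters are those of the reference genome, and the alleles of Raji were not read. Capitals mark matches, on either strand, to the core of the Y box (CCAAT), the core of the X2 box (TGACG), the interferon-stimulated response element ISRE (GAAA and GAAA with NN between them) or its shorter class I form (GAANNGAAA), and the κB element (GGGNNTTCC, or GGG and TTTCC with NN between them). The forms of one element can overlap.
HLA-B promoter (chr6:31357130-31357429, minus strand): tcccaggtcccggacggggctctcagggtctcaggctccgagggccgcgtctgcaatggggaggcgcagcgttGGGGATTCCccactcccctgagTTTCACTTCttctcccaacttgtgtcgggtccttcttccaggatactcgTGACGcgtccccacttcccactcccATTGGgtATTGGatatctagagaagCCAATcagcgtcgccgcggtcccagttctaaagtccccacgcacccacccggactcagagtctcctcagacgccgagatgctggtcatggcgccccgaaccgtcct
HLA-C promoter (chr6:31272043-31272342, minus strand): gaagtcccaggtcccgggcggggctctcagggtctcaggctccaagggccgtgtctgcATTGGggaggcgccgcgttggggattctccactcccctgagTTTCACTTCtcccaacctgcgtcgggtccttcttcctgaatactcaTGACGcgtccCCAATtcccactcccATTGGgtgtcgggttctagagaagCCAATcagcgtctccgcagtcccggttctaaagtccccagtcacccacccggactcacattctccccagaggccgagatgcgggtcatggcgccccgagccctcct
HLA-F promoter (chr6:29723184-29723483, plus strand): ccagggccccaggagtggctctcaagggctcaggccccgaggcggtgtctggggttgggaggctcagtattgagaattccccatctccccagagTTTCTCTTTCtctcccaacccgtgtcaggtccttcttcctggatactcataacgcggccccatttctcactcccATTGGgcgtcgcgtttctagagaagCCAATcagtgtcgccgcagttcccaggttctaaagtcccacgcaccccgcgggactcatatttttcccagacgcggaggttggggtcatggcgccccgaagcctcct
B2M promoter (chr15:44711267-44711566, plus strand): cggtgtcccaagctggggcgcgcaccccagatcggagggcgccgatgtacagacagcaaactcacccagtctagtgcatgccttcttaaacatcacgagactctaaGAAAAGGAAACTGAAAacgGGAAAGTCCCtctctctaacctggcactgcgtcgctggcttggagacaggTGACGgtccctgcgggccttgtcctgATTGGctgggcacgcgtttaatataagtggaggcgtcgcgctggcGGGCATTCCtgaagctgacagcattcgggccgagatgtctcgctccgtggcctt
TAP1 promoter (chr6:32853655-32853954, minus strand): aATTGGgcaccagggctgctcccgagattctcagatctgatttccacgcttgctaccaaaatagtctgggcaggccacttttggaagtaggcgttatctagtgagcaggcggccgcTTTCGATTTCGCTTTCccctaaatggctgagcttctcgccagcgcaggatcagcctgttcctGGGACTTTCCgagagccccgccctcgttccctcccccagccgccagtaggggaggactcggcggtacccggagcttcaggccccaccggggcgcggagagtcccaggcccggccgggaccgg
TAP2 promoter (chr6:32838690-32838989, minus strand): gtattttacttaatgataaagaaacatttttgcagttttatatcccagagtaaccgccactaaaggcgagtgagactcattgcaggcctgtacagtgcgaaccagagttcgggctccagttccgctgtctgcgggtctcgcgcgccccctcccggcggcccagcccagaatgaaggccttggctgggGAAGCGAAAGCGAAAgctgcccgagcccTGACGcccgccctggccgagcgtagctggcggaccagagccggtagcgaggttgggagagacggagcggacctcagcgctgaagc
HLA-B and HLA-C each held a match to the short ISRE form, then the X2 core and then 3 Y cores, HLA-C held another Y core before them, and HLA-B a κB match. The X2 core began at position -106 from the start in HLA-B and -105 in HLA-C. HLA-F held an ISRE and 2 Y core matches but no X2 core match. B2M held 2 overlapping ISRE matches, a κB match after them, an X2 core, a Y core and a κB match at the start. In the entry shown, TAP1 held 2 overlapping ISRE matches, a κB match and a Y core at the far end, and no X2 core match. The other TAP1 entry, not shown, held no match to any of these forms. TAPBP, also not shown, held 2 overlapping ISRE matches and a stretch that matched both κB forms, but no X2 or Y core. TAP2 held an ISRE match that overlaps a match to the short form, and an X2 core. The Y and X2 cores were common, in 34.6% and 24.6% of all 35116 promoter entries, and in 5 and 4 of 8 member entries. The ISRE occurred in 3.57% of all entries (5 of 8 member entries) and its short form in 7.66% (3 of 8). The shorter and longer κB forms occurred in 6.58% and 1.91% (3 of 8 each). The motifs were chosen after the promoters were seen, so these counts are no test of enrichment. A match describes the letters of the window and no bound factor was measured.

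Summed gene counts were 2116444 and 2081636 in R1810A and 2326036 and 2991959 in WT. Defining B cell genes were present in every library (10 of 10 markers with reads), with summed levels of 4782 and 5607 library-scaled counts (CPM) in R1810A and 5389 and 4375 CPM in WT. Summed markers of other lineages were low, with at most 0.860 CPM for T cells, 4.73 CPM for natural killer cells, 6.25 CPM for fibroblast and epithelial cells and 1.34 CPM for dendritic cells. CD3D, CD2, GNLY, NCR1, EPCAM, KRT18, KRT19, COL1A2, CLEC9A and CD207 had no read in any library. The myeloid list was the exception. It summed to 271 and 182 CPM in R1810A and 219 and 148 CPM in WT, 3 of its 5 markers had reads in every library, CSF1R was the highest with up to 508 reads, and FCGR3A had none. The part of these transcripts in any result was not tested. The B cell markers did not go against the label of a B cell line. In a bulk sample, fewer cells that express a gene and less RNA per cell cannot be told apart.

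By RPKM, which sets genes side by side per length, B2M was far above every other member. It stood at 1040.2 and 924 RPKM in R1810A and at 1146 and 993 RPKM in WT, a mean over the 4 libraries 18.4 times that of HLA-B, the next gene. The heavy chains followed. HLA-B stood at 56.2 and 54.0 RPKM in R1810A and 65.1 and 48.1 RPKM in WT, HLA-C at 42.6 and 34.8 against 49.3 and 35.6 RPKM, and HLA-E at 33.5 and 34.1 against 37.6 and 24.3 RPKM. The ranges of these neighbours overlapped across libraries, but within every library HLA-B was above HLA-C and HLA-C above HLA-E. The last step was small in R1810A replicate 2, at 34.8 against 34.1 RPKM. The range of HLA-E also overlapped that of TAP2, a transporter subunit gene, which stood at 22.6 and 23.2 RPKM in R1810A and 30.5 and 27.2 RPKM in WT. From TAP2 down, no neighbours overlapped: TAP1 had 14.5 and 13.7 RPKM in R1810A and 16.8 and 13.3 RPKM in WT, and NLRC5 had 8.75 and 8.48 against 8.61 and 10.3 RPKM. TAPBP followed at 7.24 and 6.04 RPKM in R1810A and 5.84 and 7.54 RPKM in WT. HLA-F, a nonclassical heavy chain, was lowest at 0.794 and 0.939 RPKM in R1810A and 1.22 and 0.801 RPKM in WT.

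**Figure D1:**
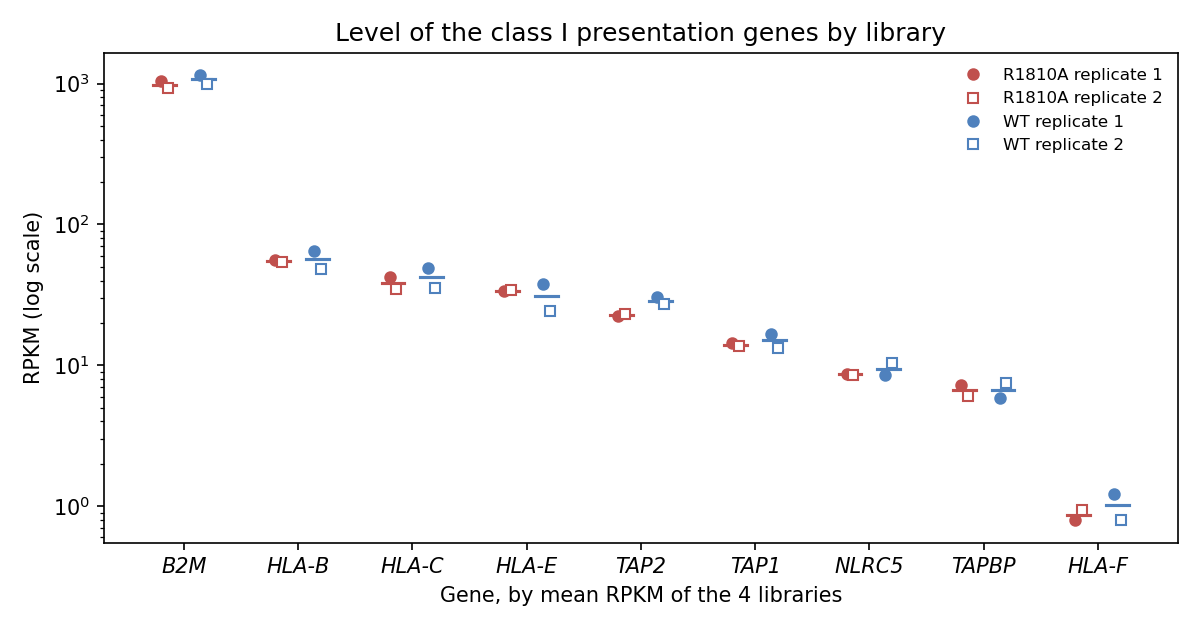
RPKM on a log axis for each gene in each library, with R1810A left of WT; circles are replicate 1, squares replicate 2 and short lines the mean of 2 libraries. B2M stands between 924 and 1146 RPKM and HLA-F between 0.794 and 1.22 RPKM, and the 2 groups of every gene lie close together relative to this range.

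Heavy chain genes are among the most polymorphic human genes and resemble each other, so reads of Raji alleles that differ from the reference, or that match several genes, may be missing or split, and single values carry that uncertainty. The 11 annotated class I pseudogenes took few reads: 9 and 6 in R1810A and 4 and 12 in WT in all, with 7 of them at 0 in every library. All libraries come from the same cell line and share this limit.

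None of the 9 genes differed between R1810A and WT at an adjusted p under 0.05 with edgeR's quasi-likelihood test, DESeq2 or limma-voom. Over all 10674 genes tested, 0.356% passed with edgeR (0.347% higher and 0.00937% lower in R1810A), 0.384% with DESeq2 and 0.234% with limma-voom. Before adjustment, 0 of the 9 had an edgeR p under 0.05, against 8% of all genes. All 9 passed the low-count filter. Of their log2 fold changes 4 were positive and 5 negative, with a median of -0.0014, against 49.4% positive and a median of -0.0046 over all genes. The 95% interval of the fold change stayed below a 1.5-fold rise in 7 genes and above a 1.5-fold fall in 8, with HLA-F as the exception in both directions and HLA-E for a rise.

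**Figure D2:**
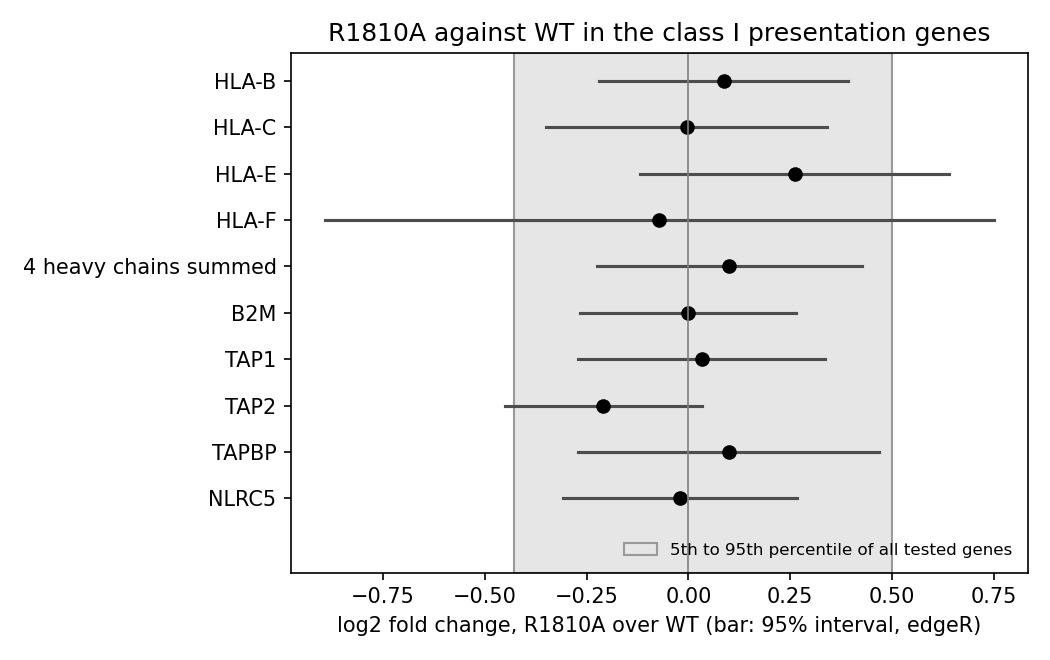
Log2 fold change of R1810A over WT with its 95% interval from edgeR for each gene and for the 4 heavy chains summed; the grey band spans the 5th to 95th percentile of all 10674 tested genes (-0.43 to 0.50). Every interval includes 0, and that of HLA-F, with few reads, is the widest.

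HLA-B and HLA-C, the classical heavy chains that present peptides to CD8 T cells, differed by less than the spread between the libraries. HLA-B (ENSG00000234745, chromosome 6) had 685 and 677 reads in R1810A and 810 and 790 in WT. Scaled to library size, this was 326 and 323 CPM in R1810A and 352 and 261 CPM in WT. Both R1810A values lay between the WT values, and the log2 fold change was 0.09 (SE 0.14, edgeR adjusted p = 0.902). HLA-C (ENSG00000204525), also the main ligand of killer cell immunoglobulin-like receptors, had 441 and 370 reads in R1810A and 520 and 495 in WT. At 209.8 and 177 CPM in R1810A and 226 and 163 CPM in WT, it gave a log2 fold change of -0.0047 (SE 0.16, edgeR adjusted p = 0.992).

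HLA-E (ENSG00000204592) shows leader peptides of other heavy chains to natural killer cell receptors and had the most positive log2 fold change of the 9. Its counts were 402 and 421 in R1810A and 460 and 393 in WT, or 191 and 201 CPM in R1810A against 199.99 and 129.8 CPM in WT. The R1810A libraries and WT replicate 1 lay together and WT replicate 2 lay lower, so the groups overlapped. The log2 fold change was 0.26 (SE 0.17, edgeR adjusted p = 0.730), a 1.20-fold difference with a 95% interval of 0.920 to 1.56. With WT replicate 1 left out it became 0.59 (edgeR adjusted p = 0.033, in a range of 0.033 to 1.00 over all alternatives), and with WT replicate 2 left out -0.03.

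HLA-F (ENSG00000204642), a nonclassical heavy chain, had 14 and 17 reads in R1810A and 22 and 19 in WT. At 6.66 and 8.11 CPM in R1810A and 9.56 and 6.28 CPM in WT, the groups overlapped and the log2 fold change was -0.07 (SE 0.37, edgeR adjusted p = 0.973). With so few reads the 95% interval of the fold change ran from 0.539 to 1.68, and a difference within it was not detectable at this depth.

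Summed per library, which does not depend on how reads are split among the 4 heavy chain genes, their reads were 1542 and 1485 in R1810A and 1812 and 1697 in WT. Reads dropped or counted more than once would still change the sum. In the GRCh38 annotation the spans of HLA-B and HLA-C overlap on the same strand, and how such reads were counted is not known. The sum stood at 734 and 709 CPM in R1810A and 788 and 561 CPM in WT, a mean of 721 ± 17.6 CPM in R1810A and 674 ± 161 CPM in WT (SD, n = 2). The log2 fold change was 0.10 (SE 0.15, edgeR adjusted p = 0.892), and it became 0.36 when WT replicate 1 was left out and -0.13 when WT replicate 2 was. Within the sum, HLA-E took a larger part in R1810A, 26.1% (exact Clopper-Pearson 95% interval 23.9 to 28.3%) and 28.4% (26.1 to 30.7%), than in WT, 25.4% (23.4 to 27.5%) and 23.2% (21.2 to 25.2%). The intervals cover counting error only. The groups did not overlap, and the two-sided exact permutation p of 0.333 is the smallest that 2 against 2 libraries can give. By CPM, 39.3% of all tested genes had groups that did not overlap. HLA-C took 28.6% and 24.9% in R1810A and 28.7% and 29.2% in WT, also without overlap (exact permutation p = 0.333). Shares of the same sum depend on each other, and their p-values were not adjusted. HLA-B took 44.4% and 45.6% of the sum in R1810A and 44.7% and 46.6% in WT.

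B2M (ENSG00000166710, chromosome 15), the light chain common to all class I molecules, had the most reads of the 9. It had 4271 and 3899 reads in R1810A and 4799 and 5485 in WT. The level was 2032 and 1861 CPM in R1810A and 2086 and 1812 CPM in WT, so each R1810A library fell between the WT libraries. The mean was 1947 ± 121 CPM in R1810A and 1949 ± 194 CPM in WT (SD, n = 2), with a log2 fold change of -0.0014 (SE 0.12, edgeR adjusted p = 0.997) and a 95% interval of the fold of 0.831 to 1.20. B2M alone held 60.1% and 58.3% of the reads of the 9 genes in R1810A and 58.7% and 60.0% in WT.

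TAP1 and TAP2 form the channel that moves peptides into the endoplasmic reticulum, and their genes lie close together on chromosome 6 with the immunoproteasome genes PSMB8 and PSMB9. TAP2 (ENSG00000204267) was the one member whose groups did not overlap, a pattern seen in 39.3% of all tested genes, with R1810A above WT in 19.8% and below WT in 19.5%. It had 637 and 674 reads in R1810A and 878 and 1033 in WT, or 303 and 322 CPM in R1810A against 382 and 341 CPM in WT. Both R1810A libraries were lower, with a log2 fold change of -0.21 (SE 0.11, edgeR adjusted p = 0.656), a fold of 0.865 with a 95% interval of 0.732 to 1.02. The value stayed negative without any one library, between -0.29 and -0.13.

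TAP1 (ENSG00000168394) had 266 and 258 reads in R1810A and 315 and 328 in WT. Its level of 127 and 123 CPM in R1810A lay between the 137 and 108 CPM of WT, with a log2 fold change of 0.03 (SE 0.14). The per-length ratio of TAP1 to TAP2 was 0.641 and 0.587 in R1810A and 0.551 and 0.487 in WT. It was higher in both R1810A libraries by 0.24 on the log2 scale, with a two-sided exact permutation p of 0.333, the smallest possible, and 0.889 adjusted over the 4 ratios computed. With a library left out the difference ran from 0.16 to 0.33, the lowest without WT replicate 2. PSMB9, which is transcribed away from TAP1 from a shared promoter region, stood at 90.4 and 94.5 CPM in R1810A and 95.6 and 82.6 CPM in WT. The per-length ratio of TAP1 to PSMB9 was 1.09 and 1.02 in R1810A and 1.12 and 1.02 in WT. PSMB8 stood at 171 and 135 CPM in R1810A and 165 and 130.5 CPM in WT. The use of strand in the counting is not given in the sources used here, so reads where such neighbours overlap cannot be assigned with certainty.

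TAPBP (ENSG00000231925, chromosome 6), whose product bridges TAP and the heavy chain, had 147 and 126 reads in R1810A and 121 and 206 in WT. It stood at 69.9 and 60.1 CPM in R1810A and 52.6 and 68.0 CPM in WT, with overlapping groups and a log2 fold change of 0.10 (SE 0.17, edgeR adjusted p = 0.909). NLRC5 (ENSG00000140853, chromosome 16), the activator of class I promoters, had 245 and 244 reads in R1810A and 246 and 389 in WT. Its levels of 117 and 116 CPM in R1810A were nearly equal and lay between the 107 and 128 CPM of WT. The log2 fold change of NLRC5 was -0.02 (SE 0.13, edgeR adjusted p = 0.980).

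The balance of chains was also similar. The 4 heavy chains summed stood to B2M, per length, at 0.128 and 0.134 in R1810A and 0.134 and 0.110 in WT, a log2 difference of 0.11 that was smaller than the SD of 0.20 in WT (two-sided exact permutation p = 0.667, 0.889 adjusted over the 4 ratios). That difference became 0.26 when WT replicate 1 was left out and -0.03 when WT replicate 2 was. The ratio of HLA-B to HLA-C was 1.32 and 1.55 in R1810A and 1.32 and 1.35 in WT (p = 1, exact permutation test). All 9 genes together made up 0.336% (95% interval 0.328 to 0.344%) and 0.321% (0.314 to 0.329%) of gene counts in R1810A, and 0.351% (0.344 to 0.359%) and 0.305% (0.299 to 0.312%) in WT. The mean was 0.329 ± 0.0104% in R1810A and 0.328 ± 0.0324% in WT (SD, n = 2, exact permutation p = 1).

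**Figure D3:**
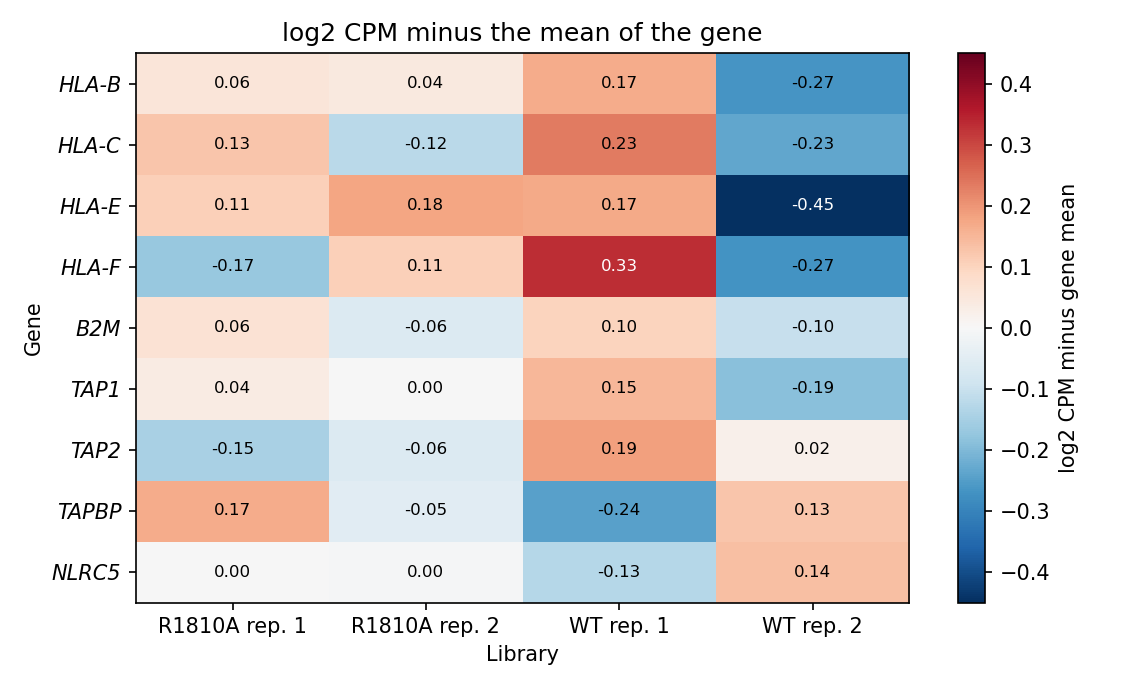
Log2 CPM of each gene in each library after the mean of the gene is taken away, with red above and blue below that mean. The 4 heavy chains, B2M and TAP1 are highest or nearly so in WT replicate 1 and lowest in WT replicate 2, while in TAPBP and NLRC5 WT replicate 1 is the lowest library.

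The larger differences lay between the WT libraries. In all 9 genes the WT libraries differed from each other more than the R1810A libraries did, which was so in 56.6% of all tested genes, and in 6 of the 9 both R1810A libraries lay between the WT libraries, against 18.6% of all genes. Between R1810A libraries the replicate 1 over replicate 2 ratio ran from 0.821 for HLA-F to 1.19 for HLA-C. Between WT libraries it was 1.54 for HLA-E (95% counting interval 1.34 to 1.77), and 4.24% of 7478 genes with a mean count of at least 50 had a WT difference at least as large. It was 1.52 for HLA-F (0.787 to 2.98, the one interval that includes 1), 1.38 for HLA-C (1.22 to 1.57), 1.35 for HLA-B (1.22 to 1.49), 1.26 for TAP1 (1.08 to 1.48), 1.15 for B2M (1.11 to 1.20) and 1.12 for TAP2 (1.02 to 1.23). TAPBP at 0.773 (0.613 to 0.972) and NLRC5 at 0.832 (0.707 to 0.979) were lower in WT replicate 1. These intervals cover counting error only and compare libraries, not conditions.

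The MHC class II genes, which serve CD4 T cell recognition in B cells, differed between the WT libraries in the same direction. All 12 tested class II genes were higher in WT replicate 1, with a median log2 ratio of 0.58, against 7 of the 9 class I presentation genes with a median of 0.34 and 49.3% of all genes with a median of -0.006. Of the other pathway lists, described below, loading chaperones had a WT median of 0.35 (5 of 6 genes higher in WT replicate 1). It was 0.17 for the immunoproteasome list (6 of 6) and 0.15 for constitutive subunits (3 of 3). The remaining medians were -0.01 for trimming, 0.008 for transcription, 0.03 for class I-like ligands and -0.06 for export and turnover. HLA-DQA1 stood at 356 and 375 CPM in R1810A and at 453 and 210.4 CPM in WT, and HLA-DQB1 at 149 and 142 CPM in R1810A and 183 and 85.5 CPM in WT, both named after their values were seen. The R1810A libraries gave medians of -0.05 for class II and 0.01 for the 9 genes. No class II gene passed in R1810A against WT with edgeR, DESeq2 or limma-voom, and 0 had an unadjusted p under 0.05 with edgeR. The median log2 fold change of the 12 was 0.03, and it became 0.33 when WT replicate 1 was left out and -0.25 when WT replicate 2 was. CD74, the invariant chain, stood at 2392 and 2502 CPM in R1810A and 2304 and 1874 CPM in WT (log2 fold change 0.23, SE 0.13, edgeR adjusted p = 0.672). CIITA, the class II transactivator, stood at 144 and 184 CPM in R1810A and 157 and 133 CPM in WT (0.18, SE 0.14, edgeR adjusted p = 0.780). With WT replicate 1 left out, HLA-DQA1 (log2 fold change 0.80) and HLA-DQB1 (0.77) passed with edgeR, as did HLA-E. What sets the WT libraries apart was not tested.

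**Figure D4:**
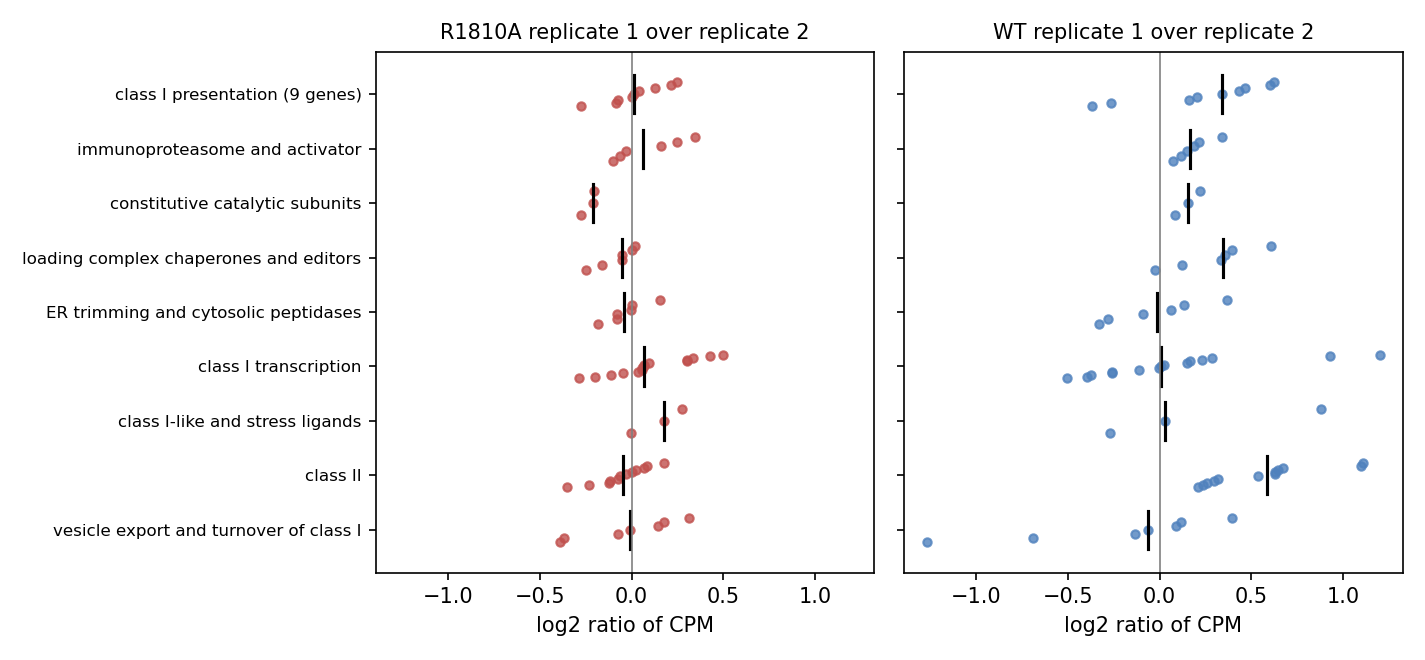
Log2 ratio of replicate 1 over replicate 2 for every tested gene of each list, R1810A on the left and WT on the right, with a black bar at the list's median. In WT the class II genes all lie right of 0 and 7 of the 9 class I presentation genes do, while in R1810A both sets lie around 0.

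The rest of the pathway showed no called gene either. In 7 lists with 60 genes of peptide supply, loading, trimming, transcription, export and class I-like ligands, 46 genes passed the low-count filter. With edgeR 0 were higher and 0 lower at an adjusted p under 0.05, as with DESeq2 and limma-voom, and 2 were higher and 0 lower at an unadjusted p under 0.05, against 4.94% and 3.06% of all genes. Their median log2 fold change was 0.04.

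Among immunoproteasome subunits and proteasome activators, 3 of 6 fold changes were positive and the median was -0.0046. PSME1, a subunit of the PA28 activator, stood at 119 and 101 CPM in R1810A and 93.0 and 85.9 CPM in WT (log2 fold change 0.30, SE 0.14, edgeR adjusted p = 0.621). PSME3, the nuclear activator subunit, stood at 479.6 and 490.2 CPM in R1810A and 572 and 503 CPM in WT (-0.15, SE 0.11). The constitutive catalytic subunits had a median of 0.0085 in 3 genes, with PSMB5 at 0.21 and PSMB6 at -0.10.

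Of the chaperones and editors of the loading complex, 5 of 6 had positive fold changes, with a median of 0.04. PDIA3, the oxidoreductase ERp57 of that complex, stood at 23.3 and 27.7 CPM in R1810A and 17.8 and 18.2 CPM in WT (log2 fold change 0.50, SE 0.23, edgeR adjusted p = 0.622). TAPBPL, which encodes the peptide editor TAPBPR, had 16.7 and 18.6 CPM in R1810A and 19.1 and 12.6 CPM in WT. The trimming peptidases had a median of 0.12 in 6 genes, 5 of them positive, with the cytosolic peptidases TPP2 at 0.21 and NRDC at 0.14. CALR and CANX, the lectin chaperones of the heavy chain, stood at 0.01 (SE 0.14) and -0.02 (SE 0.11). ERAP1, the main trimming enzyme of the endoplasmic reticulum, stood at 0.0076 (SE 0.11). CALR, CANX and ERAP1 were named outside the rule after their values were seen.

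Factors of class I transcription had a median log2 fold change of 0.04 in 15 genes, 10 of them positive. NFYB, a subunit of the factor that binds the Y box, had 13.8 and 12.9 CPM in R1810A and 7.83 and 11.2 CPM in WT (0.46, SE 0.30, edgeR adjusted p = 0.725). IRF9, of the interferon-activated ISGF3 complex, had 25.7 and 18.1 CPM in R1810A and 22.2 and 9.58 CPM in WT (0.51, SE 0.36, edgeR adjusted p = 0.750). Of genes for export and turnover of class I, 2 of 7 were positive with a median of -0.12, among them the ubiquitin ligases MARCHF9 (-0.27, SE 0.15) and SYVN1 (0.22, SE 0.12). Of 16 class I-like and stress ligand genes, 3 had enough reads to test. They were MR1, which presents metabolites to MAIT cells (0.19, SE 0.19), MICB, a ligand of the NKG2D receptor (0.21, SE 0.23), and FCGRT, the neonatal Fc receptor chain that pairs with β2-microglobulin (0.29, SE 0.38). HLA-G had 2 and 2 reads in R1810A and 1 and 1 in WT, and CD1B, CD1C and CD1E had none.

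**Figure D5:**
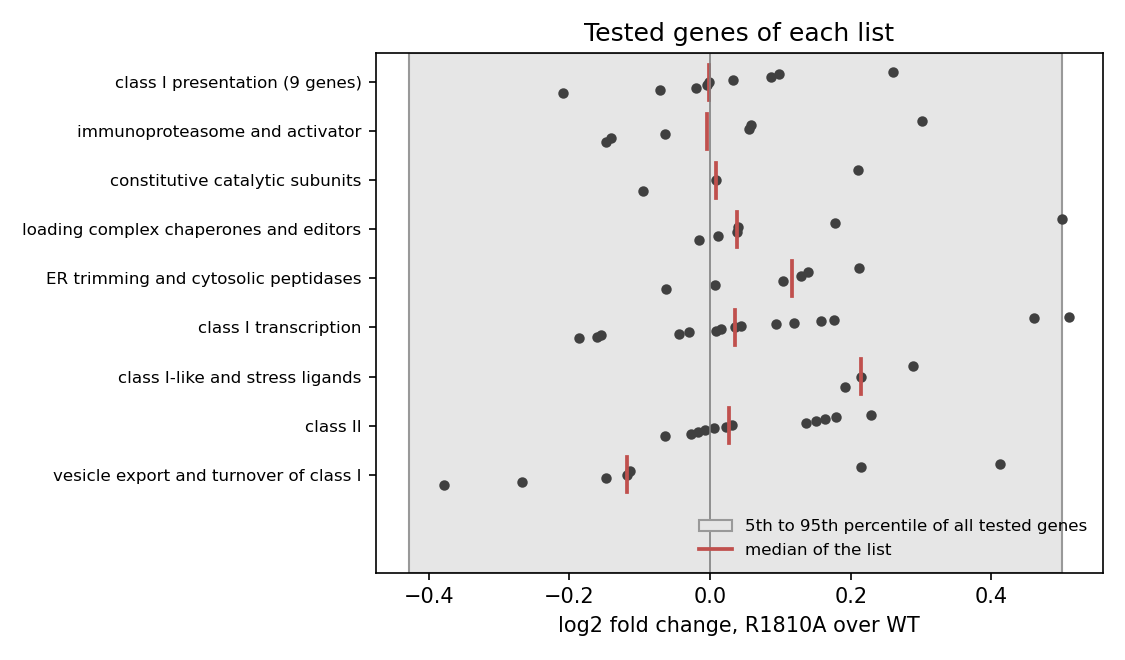
Log2 fold change of R1810A over WT for every tested gene of each list, with a red bar at the list's median and the 5th to 95th percentile of all tested genes in grey. The medians lie between -0.12 and 0.21, and none of the genes passed the threshold.

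The profiles most like those of 3 members over the 4 libraries were found by the Euclidean distance of log2 CPM, centred on each gene's mean, among 7477 other genes with a mean count of at least 50. Nearest to HLA-B were MUL1 (0.013), NANS (0.024) and LETM1 (0.029), and nearest to B2M were ADIPOR2 (0.017), SNRPN (0.020) and INTS3 (0.026). Nearest to NLRC5 were SMAD2 (0.014), MTF2 (0.016) and KLHL8 (0.020). None of these 9 neighbours belongs to the lists of antigen presentation. Distances over 4 libraries of the same cells describe those libraries only.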

How the data were processed

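RNA of 4 Raji libraries was analysed, 2 from R1810A and 2 from WT cells, sequenced on an Illumina GAII per the labels. The submitters' processing notes name Bowtie and the build hg19. How genes were counted (program, annotation, strand, reads with several matches) is not given in the sources used here. Deposited counts are raw read counts per Ensembl gene, per the file headers. The RPKM values deposited by the authors equalled the count scaled by deposited gene length and total reads within a relative tolerance of 0.0001, and served only to set genes side by side. Symbols came from current name tables for 40926 of 51714 identifiers, and those without one held 7.49% of counts. Promoter coordinates are GRCh38.p14, not the build of the alignment. The promoter motifs were chosen after the promoters were seen.

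The comparison used edgeR 4.0.16 in R 4.3.3 (filterByExpr, TMM, glmQLFit, glmQLFTest, group as the only term), with Benjamini-Hochberg adjustment at 0.05 over 10674 genes. The SE is the log2 fold change divided by the square root of F, in absolute value, and the 95% interval multiplies it by the t quantile of the fit's degrees of freedom. CPM are TMM-scaled, except in the marker lists, where they are scaled to summed gene counts. The heavy chain sum entered the fit as 1 added feature. Shares and ratios were tested with exact permutation tests (scipy 1.17.1). Alternatives used DESeq2 1.42.0 and limma-voom of limma 3.58.1, other scalings, no filter, a replicate block and each library left out. The fit was tested on simulated data with changes larger than those of the 9 members. That run does not show how well changes as small as theirs are found. Members and lists were chosen with earlier results of these data known. The text names all 9 members and, of each list, every gene past the threshold or otherwise the 2 with the smallest p, with PSMB8, PSMB9 and the nearest profiles. Genes named after their values were seen are stated as such. Replicates of a group differed by more than sampling noise (chi-square per degree of freedom 2.12 in R1810A and 4.08 in WT). Each library was counted as a replicate, but these values cannot show that replicates were separate cultures.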

Additional observations from a re-analysis of the deposited data

How the results depend on the processing

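No alternative other than a left-out library brought any of the 9 genes past the threshold, and without WT replicate 1 the number past it was 1, HLA-E. With a library left out, the number of genes past it ranged from 0 to 1 among the 9, from 2 to 113 higher and from 0 to 40 lower over all genes. Over all genes, 37 were higher and 1 was lower, against 78 and 7 with no filter, 24 higher with limma-voom, 73 and 4 with the replicate block, and 2 lower with DESeq2, 4 with robust edgeR and 5 with the deposited total reads. The replicate numbers share no stated batch, the differences between numbers correlated at r = -0.08 across 7478 genes, and the block brought none of the 9 past the threshold. With library sizes set to the deposited total reads, the all-gene median shifted by -0.12 (log2), and the log2 fold changes of HLA-B (-0.035), TAP1 (-0.089), TAPBP (-0.022) and the heavy chain sum (-0.022) turned negative, each still above the shifted median. HLA-C and B2M, near 0, turned positive with limma-voom (0.013 and 0.0011) and the replicate block (0.00034 and 0.00044). With a library left out the log2 fold changes ran from -0.12 to 0.31 for HLA-B, -0.23 to 0.24 for HLA-C, -0.030 to 0.59 for HLA-E, -0.37 to 0.23 for HLA-F, -0.10 to 0.10 for B2M, -0.14 to 0.20 for TAP1, -0.066 to 0.30 for TAPBP, -0.14 to 0.12 for NLRC5 and -0.13 to 0.36 for the heavy chain sum, and so changed sign in each of these. The list medians then ran from -0.11 to 0.07 for the immunoproteasome, -0.14 to 0.14 for constitutive subunits, -0.12 to 0.22 for loading chaperones, 0.05 to 0.14 for trimming, -0.02 to 0.07 for transcription, 0.13 to 0.28 for class I-like ligands, -0.25 to 0.33 for class II and -0.21 to -0.06 for export and turnover, the median of the 9 from -0.12 to 0.20, and the log2 ratio differences from -0.08 to 0.04 for TAP1 to PSMB9 and -0.02 to 0.21 for HLA-B to HLA-C. TAP2 kept its sign in all 12 alternatives. The cause of these changes was not tested. The 1 library that then remains in a group is assumed to vary like the other pair. Summing alternate haplotype identifiers was not run, because the name tables used here pair none of them with a member's symbol. Depth limits HLA-F most, with 14 to 22 reads per library.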
